A study of Mus musculus with 9 samples.

Results

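The 10 genes followed here through liver development belong to the circadian clock and to its PAR-bZIP output arm: Per1, Per2, Per3, Cry1, Clock, Dbp, Hlf, Nr1d1, Nr1d2 and Bhlhe40. They are 10 of 19938 genes measured, taken from a list by symbol, and each was read by 1 probe set. The RNA came from stromal cells sorted from livers of C57BL/6 mice that carried a DsRed reporter on 1 Cxcl12 allele (Cxcl12DsRed/+), with cells bearing CD45 or Ter119, markers of blood cells, left out. Livers were taken before birth at E15.5 (in embryonic days) and after it at P5 and P10 (in postnatal days), with 3 arrays per stage, and all groups share the reporter, strain and gate. The 3 replicates of a stage are described as independent, with no word on which animals were used or pooled, and p-values here rest on array-to-array spread that may be partly technical. No source used here gives the time of day of collection, and a difference in collection time that followed stage cannot be told apart from stage.

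The clock is a feedback loop that runs in nearly every cell. CLOCK and its partner BMAL1 bind E-box sequences and switch on the Per and Cry genes, whose proteins then repress CLOCK and BMAL1, while the REV-ERB proteins encoded by Nr1d1 and Nr1d2 repress the BMAL1 gene. The PAR-bZIP factors DBP, HLF and TEF are switched on by the loop, bind D-box sequences and carry its rhythm to many genes of liver metabolism, and in adult liver Dbp and Nr1d1 RNA peak nearly opposite in the day to that of the BMAL1 gene.

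Values are log2 signals, so a difference of 1 is a doubling, and the number of arrays limits their precision. Arrays of a stage correlated at 0.986 to 0.995 (Pearson r across genes, which are not replicates) and arrays of different stages at 0.875 to 0.985. Cxcl12, the gene of the gate, averaged 10.98 ± 0.32 on the E15.5 arrays (SD, n = 3), against 10.17 ± 0.19 for P5 and 10.13 ± 0.16 for P10. Ptprc, the CD45 gene, lay between 4.97 and 5.20 on all arrays. Markers of other cell types moved with stage. Of 11 hepatocyte markers measured, 9 rose at P5 and 7 rose and 1 fell at P10 against E15.5, and the log2 of their summed signal was 15.21 to 15.31 at E15.5, 15.98 to 16.05 at P5 and 15.92 to 16.11 at P10. Fbp1, Cyp2e1 and Tat, enzyme genes of hepatocytes, rose by 7.23, 7.11 and 6.62 at P10. Others on the list did not rise at P10: Apob fell (-0.91), and Alb (-0.01) and Apoa1 (0.15) did not pass. Alb lay between 13.03 and 13.22 on all arrays. All 12 markers of stellate cells, the liver's pericytes, fell at both ages (Lhx2, Des and Reln with differences of -2.89, -2.47 and -2.51 at P10), their log2 summed signal being 13.96 to 14.20 at E15.5, 12.34 to 12.72 at P5 and 12.07 to 12.41 at P10. Endothelial markers set P5 arrays 2 and 3 (log2 summed signal 11.81 and 12) apart from P5 array 1 (9.89) and from the E15.5 arrays (10.23 to 10.48). Of 8 mesothelial and cholangiocyte markers, 6 rose and 1 fell at P5 against E15.5 (Msln 2.52, Krt18 2.20, Wt1 -0.97), 3 rose and 2 fell at P10 (Krt18 1.82, Wt1 -2.21, Upk3b -1.21), and 5 fell from P5 to P10. Their log2 summed signal was 11.40 to 11.48 at E15.5, 12.98 to 13.12 at P5 and 12.28 to 12.52 at P10. At P10, 1 of 7 blood markers rose (Alas2, 1.12). In such bulk RNA, fewer cells of a type and less RNA per cell cannot be told apart, and which of the sorted cells carried the clock transcripts was not tested.

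The clock and PAR-bZIP genes were higher after birth, and none was called lower at any stage. At P10 against E15.5, 8 of 10 rose and Per2 and Cry1 did not pass (limma, adjusted p under 0.05 over all genes). Over all genes, 20.1% were called higher and 18.6% lower in that comparison, and the median difference of the 10 was 1.30 against 0.02 for all genes. At P5 against E15.5, 6 of 10 rose (17.9% of all genes called higher and 17.7% lower), with a median of 0.64 against 0.03. The arrays of P5 lay wholly above those of E15.5 for 7 of 10 (24.1% of all genes), and those of P10 for 8 of 10 (27.9% of all genes). Between P5 and P10, 1 of 10 passed, Nr1d1 (2.76% of all genes called higher and 2.89% lower), although the P10 arrays lay wholly above the P5 arrays for 7 of 10 (10.6% of all genes). By the moderated F test over the 3 stages, 8 of 10 differed (38.3% of all genes). The 10 were chosen with earlier results of these data known, so these counts beside the shares of all genes are a description.

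**Figure D1:**
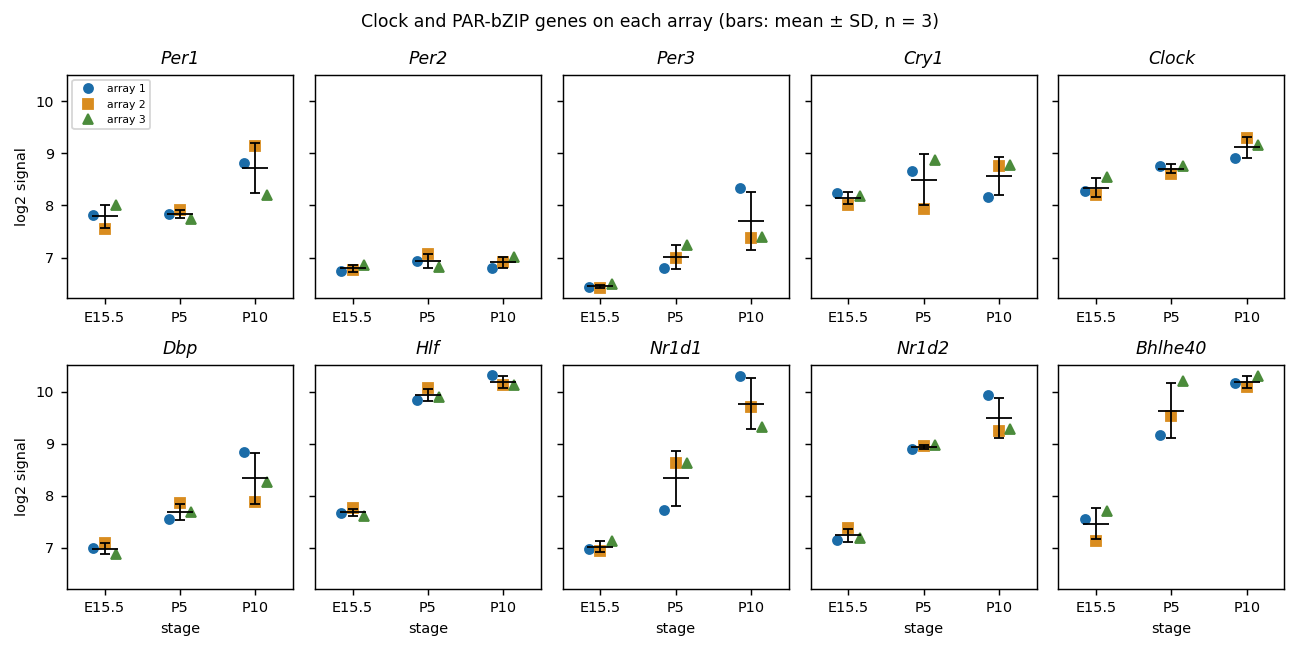
Log2 signal (vertical axis) of each of the 10 genes on every array by stage. Symbols are single arrays, and bars are mean ± SD of 3 arrays. Hlf runs from 7.62 at E15.5 to 10.32 at P10, Per2 stays between 6.75 and 7.08, and the P10 arrays spread most for Per3, Nr1d1 and Dbp.

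Among the PER and CRY repressors, Per1 and Per3 rose by P10 and Per2 and Cry1 did not pass at any stage. Per1, which also responds quickly to light, hormones and stress, was 7.82, 7.56 and 8.0 on the E15.5 arrays, 7.84, 7.91 and 7.75 at P5 and 8.82, 9.14 and 8.21 at P10. The E15.5 and P5 arrays overlapped, and all 3 P10 arrays lay above them. Per1 differed by 0.04 ± 0.22 at P5 (± SE, limma adjusted p = 0.913) and by 0.93 ± 0.22 at P10 against E15.5 (1.90-fold, limma adjusted p = 0.00919). Its P10 minus P5 difference, 0.89 ± 0.22, did not pass (limma adjusted p = 0.0564), and passed when P10 array 3 was left out (1.15, adjusted p = 0.00957).

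Per3, a paralog that stabilises the rhythm in some tissues, was 6.44, 6.42 and 6.49 at E15.5, 6.80, 7.0 and 7.24 at P5 and 8.34, 7.38 and 7.39 at P10. No stage overlapped another, and P10 array 1 stood above the other P10 arrays. Per3 differed by 0.56 ± 0.24 at P5, which did not pass (limma adjusted p = 0.113), and by 1.26 ± 0.24 at P10 (2.39-fold, limma adjusted p = 0.00336). Without P10 array 1 the P10 minus E15.5 difference was 0.94 (adjusted p = 0.000713), and the P5 minus E15.5 difference of 0.56 then passed (adjusted p = 0.00544), with an SE of 0.11 in place of 0.24.

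Per2, the other main period repressor, was 6.75, 6.76 and 6.86 at E15.5, 6.93, 7.08 and 6.81 at P5 and 6.80, 6.91 and 7.01 at P10, and the stages overlapped. Its P10 minus E15.5 difference of 0.12 had an interval of -0.08 to 0.31 (95%, limma adjusted p = 0.346). A further quantile normalisation raised the median difference of all genes to 0.12 at P5 and 0.15 at P10, from 0.03 and 0.02. After it, Per2 was called higher at both ages (0.28 and 0.31). Cry1, which encodes the cryptochrome that closes the loop late in the cycle, was 8.24, 8.02 and 8.19 at E15.5, 8.66, 7.94 and 8.88 at P5 and 8.15, 8.76 and 8.78 at P10. P5 array 2 and P10 array 1 lay within or below the E15.5 range while the other postnatal arrays lay above it. Its difference at P10 was 0.42, with an interval of -0.16 to 1.00 (limma adjusted p = 0.249), and that at P5, 0.34 ± 0.25, passed when P5 array 2 was left out (0.62, adjusted p = 0.0464).

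Promoter sequences from RefSeq (GRCm38.p6, 250 bases before to 50 after the gene start) were held for 8 of the 10 genes in 11 windows. They were searched on both strands for the E-box CACGTG, bound by CLOCK and BMAL1, and for the D-box letters TTATGTAA and TTACGTAA, bound by the PAR-bZIP factors. The E-box letters were in window 1 of Per1, not in its window 2, and in the window of Cry1. They are in 7.15% of all 32851 windows of this length. D-box letters were in 1 window, that of Per3, which holds the same letters 2 times, beginning 205 and 158 bases before the start, and are in 1.06% of all windows. Also searched were the letters CACGTT (in windows of Cry1 and Nr1d1, 4.68% of all windows), AGGTCA (Per1, Clock and Nr1d2, 16.3%) and TGACGTCA (Hlf, 1.79%). A match is a description of the letters and not a site shown to be used. The 3 windows are shown because they hold E-box or D-box letters, in capitals, and because Per1 and Per3 rose by P10 while Cry1 did not pass. They lie at chr11:69098699-69098998 (plus strand, Per1), chr4:151044616-151044915 (minus strand, Per3) and chr10:85185005-85185304 (minus strand, Cry1).
Per1: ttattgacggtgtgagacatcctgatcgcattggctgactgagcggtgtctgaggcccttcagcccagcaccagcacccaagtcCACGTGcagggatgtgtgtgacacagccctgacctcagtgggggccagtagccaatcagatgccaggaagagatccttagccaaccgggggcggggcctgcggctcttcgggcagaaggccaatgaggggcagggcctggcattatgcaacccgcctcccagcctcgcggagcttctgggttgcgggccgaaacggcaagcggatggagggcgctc
Per3: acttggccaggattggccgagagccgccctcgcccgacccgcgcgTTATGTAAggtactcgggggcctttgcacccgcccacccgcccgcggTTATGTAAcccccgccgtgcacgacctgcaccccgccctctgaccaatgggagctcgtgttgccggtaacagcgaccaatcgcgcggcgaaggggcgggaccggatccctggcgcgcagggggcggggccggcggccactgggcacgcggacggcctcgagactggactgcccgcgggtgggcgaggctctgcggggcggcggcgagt
Cry1: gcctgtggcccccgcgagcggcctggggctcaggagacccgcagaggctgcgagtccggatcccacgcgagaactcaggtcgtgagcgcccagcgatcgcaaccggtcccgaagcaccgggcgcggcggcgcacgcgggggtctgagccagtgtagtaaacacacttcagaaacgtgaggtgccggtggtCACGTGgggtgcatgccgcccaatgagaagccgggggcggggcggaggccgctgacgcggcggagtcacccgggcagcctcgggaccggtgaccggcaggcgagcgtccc

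Clock, which encodes the activator subunit, rose by less than the output genes. Its signal was 8.28, 8.21 and 8.55 at E15.5, 8.75, 8.61 and 8.75 at P5 and 8.90, 9.29 and 9.16 at P10, and no stage overlapped another. It differed by 0.36 ± 0.12 at P5 (limma adjusted p = 0.0471) and by 0.78 ± 0.12 at P10 (1.71-fold, limma adjusted p = 0.000954). The P5 call ended when E15.5 array 1 or 2, any 1 of the P5 arrays or P10 array 3 was left out (differences 0.30 to 0.41, adjusted p from 0.0595 to 0.144), whereas the P10 call held in all 9 fits that left out 1 array.

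The PAR-bZIP genes Hlf and Dbp rose at both ages against E15.5, and neither passed between P5 and P10. Hlf, which encodes hepatic leukemia factor, was 7.67, 7.76 and 7.62 at E15.5, 9.84, 10.06 and 9.89 at P5 and 10.32, 10.12 and 10.12 at P10. Its P5 arrays all lay more than 2 log2 units above the E15.5 arrays, and the P10 arrays lay narrowly above those of P5. It differed by 2.25 ± 0.086 at P5 (4.75-fold, limma adjusted p = 3.79e-07) and by 2.5 ± 0.086 at P10 (5.67-fold, limma adjusted p = 1.48e-07). The step from P5 to P10, 0.26 ± 0.086, did not pass (limma adjusted p = 0.145).

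Dbp, the classic output gene of the liver clock, was 6.99, 7.08 and 6.88 at E15.5, 7.55, 7.86 and 7.68 at P5 and 8.85, 7.89 and 8.26 at P10. The stages did not overlap, though P10 array 2 lay within 0.1 of P5 array 2. Dbp differed by 0.71 ± 0.21 at P5 (limma adjusted p = 0.0316) and by 1.35 ± 0.21 at P10 (2.54-fold, limma adjusted p = 0.00105). Its step from P5 to P10, 0.64 ± 0.21, did not pass (limma adjusted p = 0.147). The P5 call ended without any 1 of the E15.5 arrays and without P5 array 2 or 3 (differences 0.63 to 0.76, adjusted p from 0.0582 to 0.0966). Without P10 array 1 the P10 difference was 1.09 (adjusted p = 0.000643). The gene spans of Dbp and Sphk2 overlap by 741 bases in RefSeq, and Sphk2, a sphingosine kinase gene, also rose, by 0.80 at P10 (limma adjusted p = 0.00147). Whether signal is shared between them was not tested.

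The repressors Nr1d1, Nr1d2 and Bhlhe40, of the REV-ERB and DEC families, rose at both ages against E15.5. Nr1d1, which encodes REV-ERBα, a heme-binding nuclear receptor, was 6.98, 6.94 and 7.14 at E15.5, 7.73, 8.63 and 8.63 at P5 and 10.29, 9.70 and 9.31 at P10. The stages were wholly apart, with P5 array 1 lowest and P10 array 1 highest of their stages. It differed by 1.31 ± 0.29 at P5 (2.49-fold, limma adjusted p = 0.00806) and by 2.75 ± 0.29 at P10 (6.73-fold, limma adjusted p = 9.88e-05). It was also the one member called between P5 and P10 (1.44 ± 0.29, 2.71-fold, limma adjusted p = 0.0296). That call ended when E15.5 array 1 or 2, P5 array 1, or P10 array 1 or 2 was left out, with differences of 1.14 to 1.47 and adjusted p from 0.0520 to 0.0887. The P5 against E15.5 call used all 3 P5 arrays. It held in all 9 fits that left out 1 array (differences 1.16 to 1.62, limma adjusted p from 0.00195 to 0.0301). Endothelial markers set P5 arrays 2 and 3 apart, and with P5 array 1 as the lone P5 array the difference was 0.71. Any part of endothelial cells in this was not tested. Nr1d1 shares 1075 bases with the end of Thra, a thyroid hormone receptor gene, and Thra moved the other way (-1.23 at P10 against E15.5, limma adjusted p = 0.000424).

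Nr1d2, which encodes REV-ERBβ, was 7.15, 7.39 and 7.18 at E15.5, 8.90, 8.95 and 8.97 at P5 and 9.93, 9.25 and 9.28 at P10. The P5 arrays lay within 0.1 of each other, and P10 array 1 stood 0.67 above the mean of the other P10 arrays. It differed by 1.70 ± 0.17 at P5 (3.25-fold, limma adjusted p = 9.14e-05) and by 2.25 ± 0.17 at P10 (4.75-fold, limma adjusted p = 1.27e-05). Without P10 array 1 the P10 difference was 2.02 (adjusted p = 3.02e-06). The step of Nr1d2 from P5 to P10, 0.55 ± 0.17, did not pass (limma adjusted p = 0.118). Bhlhe40, which encodes DEC1, a repressor that competes for E-boxes and also answers to hypoxia and cell stress, was 7.56, 7.13 and 7.71 at E15.5, 9.17, 9.54 and 10.20 at P5 and 10.16, 10.09 and 10.30 at P10. Its P5 arrays spread over 1 log2 unit, and P5 array 3 reached the P10 range. Bhlhe40 differed by 2.17 ± 0.25 at P5 (4.50-fold, limma adjusted p = 0.000201) and by 2.72 ± 0.25 at P10 (6.58-fold, limma adjusted p = 3.85e-05). Its step from P5 to P10, 0.55 ± 0.25, did not pass (limma adjusted p = 0.302), and passed when P5 array 3 was left out (0.83, adjusted p = 0.0415).

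**Figure D2:**
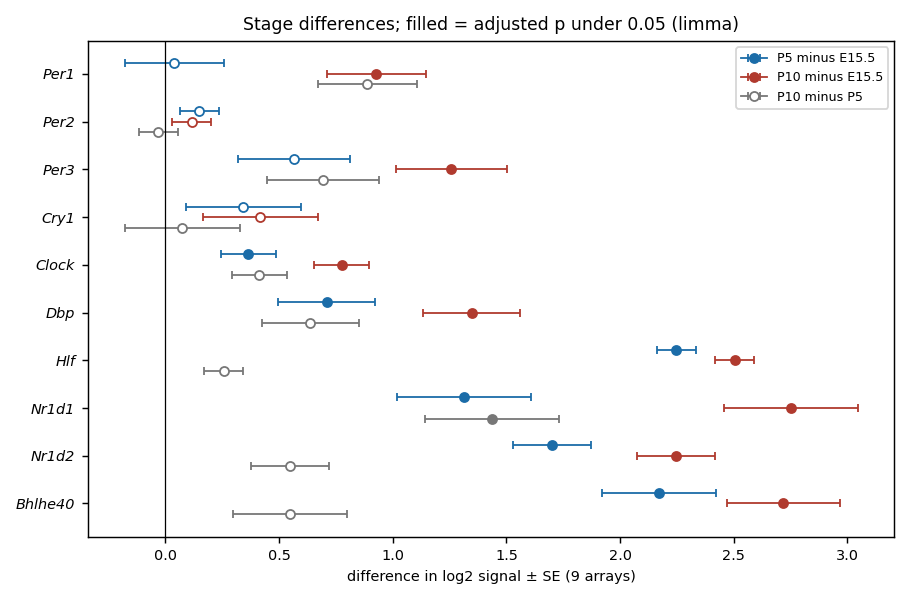
Difference in log2 signal between stages (horizontal axis) ± SE from the model over 9 arrays, for each gene and comparison. Filled points passed an adjusted p under 0.05 and open points did not. Nr1d1, Bhlhe40, Hlf and Nr1d2 lie above 2 at P10 against E15.5, and Nr1d1 alone is filled for P10 minus P5.

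The members differed in how much of the rise was present by P5. The change from P5 to P10 was smaller than that from E15.5 to P5 for Hlf (difference between the intervals -1.99 ± 0.15, limma adjusted p = 7.29e-05), Bhlhe40 (-1.62 ± 0.43, limma adjusted p = 0.0360) and Nr1d2 (-1.15 ± 0.30, limma adjusted p = 0.0309), 3 of 10 against 8.7% of all genes called in that direction. Leaving out 1 array ended the Bhlhe40 call (-1.72 to -1.06, adjusted p from 0.0606 to 0.0809) except for E15.5 array 3 or P5 array 1. It ended the Nr1d2 call (-1.19 to -1.03, adjusted p from 0.0577 to 0.0903) except for E15.5 array 2 or P10 array 1, while that of Hlf held in all 9 fits. For the other 7 the difference between the intervals did not pass, among them Per1, whose difference ran the other way (0.85 ± 0.38, limma adjusted p = 0.183) and passed when P10 array 3 was left out (1.11, adjusted p = 0.0238). As a description, 89.8% of the P10 rise of Hlf was present at P5, 79.9% for Bhlhe40, 75.7% for Nr1d2, 52.6% for Dbp, 47.8% for Nr1d1, 46.8% for Clock, 44.9% for Per3 and 4.25% for Per1. Leaving out 1 array moved the Per1 share between -9.73% and 13.9%, and that of Per3 between 35.7% and 60.2%. The intervals are of unequal length, as the earlier one spans birth.

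Within a stage the members scattered more at P10 than most genes did. The median SD of the 10 over the P10 arrays was 0.37, against 0.093 for all genes, and 6 of 10 lay above percentile 90 of all genes (0.26). At P5 the members' median was 0.14 against 0.12 for all genes, with 3 of 10 above percentile 90, and at E15.5 it was 0.11 against 0.10, with 1 of 10. These SDs rest on 3 arrays each and were given no test. In mean P10 signal all 10 members lay above the median of all genes (percentiles 53.6 to 91.4). Their SDs were not compared with those of genes of like signal.

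The scatter at P10 ran in opposite directions for different members. On P10 array 1, Per3 lay 0.96, Nr1d1 0.78, Dbp 0.77 and Nr1d2 0.67 above the mean of the other P10 arrays, 4 of 10 members by more than 0.5, as 1.80% of all genes did. On the same array Cry1 lay 0.62 and Clock 0.33 below that mean. Of genes of the loop outside the list, Tef lay 0.62 above and Arntl, which encodes BMAL1, 0.58 below. Ciart lay 0.74 below, its signal being high on P10 array 3 (6.24) and below percentile 30 of all gene values (5.68) on every other array. Hlf (0.20 above), Per1 (0.14 above), Per2 (0.17 below), Cry2 (0.09 below), Rora (0.04 below), Bhlhe40 (0.03 below) and Nfil3 (0.00) differed less. P10 array 2 had the highest Per1 and Clock of its stage, 2 of 10 members against 29.2% of all genes. It also had the highest Cry2, Rora and Arntl. It had the lowest signal for 5 of 10 members (Per3, Dbp, Hlf, Nr1d2 and Bhlhe40), as for 32.7% of all genes. On P10 array 3, Per1 lay 0.77 and Nr1d1 0.68 below the mean of the other P10 arrays. These were 2 of 10 members below by more than 0.5, as 1.18% of all genes were. Tef (0.59), Per3 (0.47) and Nr1d2 (0.31) also lay below it, and Cry1 (0.33), Bhlhe40 (0.17) and Per2 (0.16) above it. This pattern over the P10 arrays was seen in the values and then described. P10 array 1 was also the only P10 array with a Y-linked signal (Eif2s3y 8.97, against 4.0 on both others), and had the highest summed hepatocyte and the lowest summed stellate markers of its stage (16.11 and 12.07). The part of these in the pattern was not tested.

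At P5 the members deviated on different arrays. P5 array 3 had the highest Bhlhe40 and Cry1, 0.85 and 0.58 above the mean of the other P5 arrays, and P5 array 2 had Cry1 0.83 below it. P5 array 1 had the lowest signal of its stage for 6 of 10 members (Per3, Dbp, Hlf, Nr1d1, Nr1d2 and Bhlhe40), as for 23.2% of all genes, with Nr1d1 0.90 and Bhlhe40 0.70 below the mean of the other P5 arrays. P5 array 1 also had the low endothelial markers given above and no Y-linked signal (Eif2s3y 4.14, against 8.98 and 9.24), and the part of these was not tested.

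**Figure D3:**
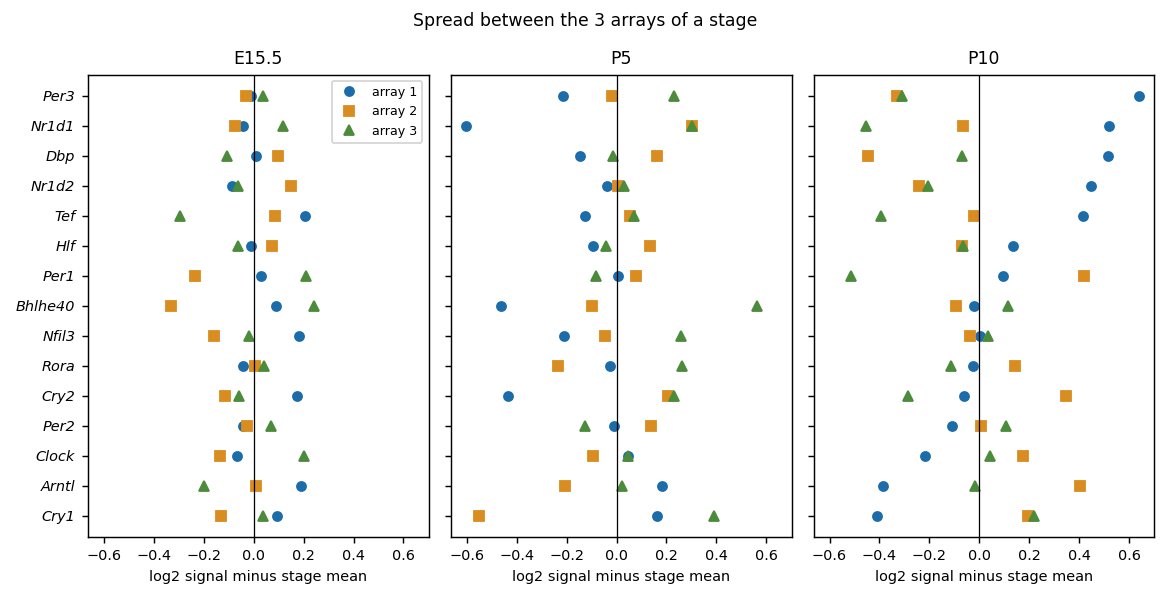
Log2 signal minus the mean of its stage (horizontal axis) on each array, for the members and other measured genes of the loop, in 1 panel per stage. P10 array 1 lies to the right for Per3, Nr1d1, Dbp, Nr1d2 and Tef and to the left for Clock, Arntl and Cry1.

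Other genes of the loop also rose. Of 11 further core clock genes listed, 8 were measured, and 5 of these rose at both P5 and P10 against E15.5, with none called lower. Rora, which encodes a nuclear receptor that activates the BMAL1 gene where REV-ERB represses it, differed by 2.27 ± 0.12 at P10 (limma adjusted p = 1.71e-06). Arntl differed by 2.07 ± 0.20 (limma adjusted p = 5.04e-05) and Nfil3, a repressor at D-boxes, by 1.76 ± 0.13 (limma adjusted p = 9.22e-06). Cry2 (1.44 ± 0.21) and Tef (1.33 ± 0.20) rose too. Arntl and the gene of its repressor Nr1d1 were thus both higher at P10 than at E15.5 over the 3 arrays, while on P10 array 1 they deviated in opposite directions. Bhlhe41 (4.36 to 4.44 on all arrays) and Rorb (4.76 to 4.90) lay below percentile 30 of all gene values (5.68) throughout and did not pass.

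Among 19 measured kinases, ligases and partners of clock proteins, 9 rose and 2 fell at P10 against E15.5, with a median of 0.25. At P5 against E15.5, 3 rose and 5 fell, with a median of -0.014. Prkaa2, a catalytic subunit of the energy sensor AMPK that marks cryptochrome for breakdown, rose by 2.98 ± 0.25 (limma adjusted p = 2.28e-05). Csnk1e, a casein kinase that phosphorylates PER proteins, differed by -1.62 ± 0.17 (limma adjusted p = 9.67e-05). Csnk1d, another casein kinase gene on the list, did not pass (0.04 ± 0.10, limma adjusted p = 0.813). Fbxl21, a ubiquitin ligase subunit for cryptochromes, rose by 1.04 ± 0.11 (limma adjusted p = 6.77e-05).

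Of 15 measured clock-controlled output genes, 12 rose and 1 fell (Tspan4, -1.93) at P10, with a median of 1.94. Pck1, the gluconeogenic enzyme gene, rose by 6.62 ± 0.14, Ppara, a nuclear receptor gene of fat burning, by 3.94 ± 0.10 and Alas1, the first enzyme of heme synthesis, by 3.09 ± 0.11. These are also genes of hepatocytes, and 7 of 11 hepatocyte markers rose on the same arrays. Of 14 glucocorticoid-responsive genes 9 rose and 1 fell (Cebpd, -1.18) at P10, with a median of 1.02. Those of smallest adjusted p were Tat (6.62 ± 0.12), a hepatocyte enzyme gene, Errfi1 (2.52 ± 0.085) and Klf15 (2.54 ± 0.091). Immediate early genes mostly fell, though Cebpb (1.06) and Jund (0.33) rose. Whether handling moved any of these genes was not tested. Of 18 measured, 2 rose and 11 fell at P10, with a median of -0.77, among them Egr2 (-1.90 ± 0.14), Klf6 (-2.06 ± 0.17) and Ier2 (-0.78 ± 0.070). These lists are described by counts and medians and were given no set test.

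**Figure D4:**
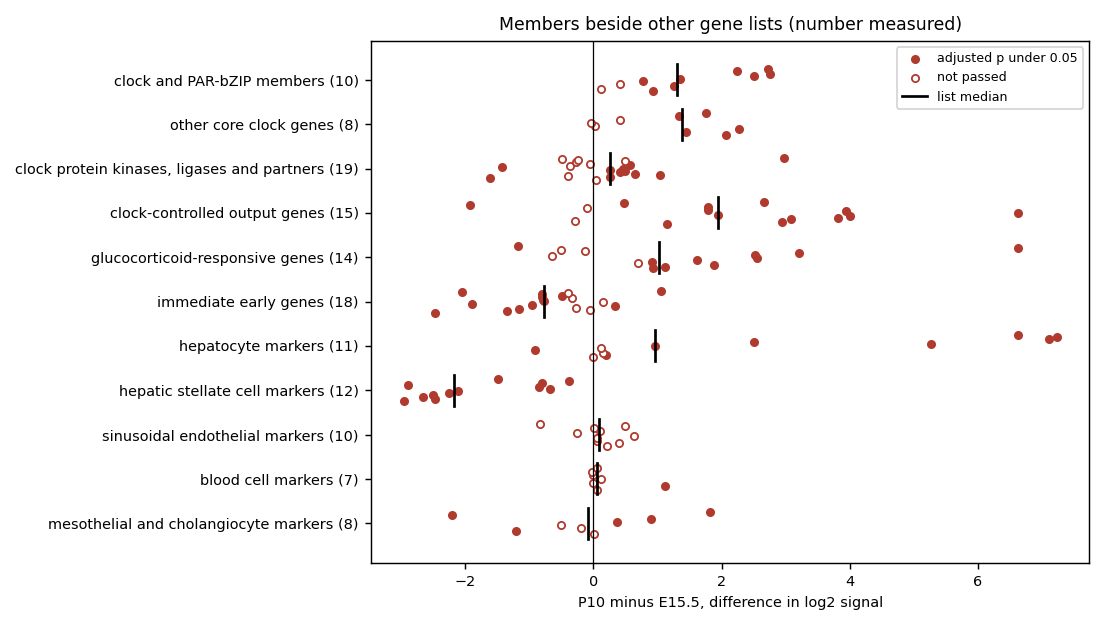
P10 minus E15.5 difference in log2 signal (horizontal axis) of every measured gene in each list. Filled points passed an adjusted p under 0.05, and vertical bars are list medians. The members (median 1.30) and other core clock genes lie mostly to the right, and stellate markers and most immediate early genes to the left.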

How the data were processed

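RNA of 9 samples of sorted liver stroma was read on Affymetrix arrays. The deposited values are log2 signals per probe set, which the authors made by robust multi-array averaging (RMA), per the submitters' processing notes. Those notes also list Transcriptome Analysis Console 2.0 and Affymetrix Expression Console. The build the authors used is not stated in the sources at hand, and GRCm38.p6 is that of the RefSeq tables. RMA pulls arrays to a common distribution, so differences are relative to the whole array. Of 35556 probe sets, 21789 have 1 gene symbol, 1621 several and 12146 are unnamed here. Symbols were updated by Entrez identifier for 21698. Where a gene had several probe sets, the one of highest 9-array mean was kept, which left 19938 genes, and all 10 members had a single probe set.

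Stage was the only term of a linear model over all 9 arrays in limma 3.58.1 under R 4.3.3, with 2-sided moderated tests and Benjamini-Hochberg adjustment over the 19938 genes, called at an adjusted p under 0.05. The fit was tested on simulated data. Same-numbered arrays of different stages were not paired (r of residuals -0.08 to 0.07). Members and lists were chosen with earlier results of these data known. Named are all members and further core clock genes. From each other list, up to 3 called genes of smallest adjusted p at P10 against E15.5 are named. Also named are markers and list genes that bear on a limit, and for each member the 3 genes most alike. Genes overlapping a member were named after their values were seen. Alternatives covered normalisation, centring, filtering, probe set choice, variance model, a replicate block and leaving out each array. Of 146 list entries 132 were measured. Figures were drawn with matplotlib 3.10.9.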

Additional observations from a re-analysis of the deposited data

Results flagged for a closer look

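For 3 genes the change from P5 to P10 differed from that from E15.5 to P5 by the test of the difference itself. Hlf differed by -1.99 ± 0.15 (limma adjusted p = 7.29e-05), and by -2.08 to -1.86 in the 9 fits that left out 1 array. Nr1d2 differed by -1.15 ± 0.30 (limma adjusted p = 0.0309), with adjusted p from 0.000783 to 0.0903 when 1 array was left out, and its call held without E15.5 array 2 or P10 array 1. Bhlhe40 differed by -1.62 ± 0.43 (limma adjusted p = 0.0360), with adjusted p from 0.0151 to 0.0809, and its call held without E15.5 array 3 or P5 array 1. With 3 arrays per stage, single arrays could not be tested as outliers.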

How the results depend on the processing

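The 8 members called at P10 against E15.5 were also called under all alternatives, and Per2 was added after quantile normalisation (9). With 1 array left out, 4 to 7 members were called at P5 against E15.5, 0 to 2 at P10 against P5, 1 to 2 for the difference between intervals and 7 to 8 by the F test. With P5 array 1 as the lone P5 array, an alternative chosen after seeing the data, 3 were called at P5 against E15.5 and 1 for the difference between intervals. The single call at P10 against P5 became 2, with Per1 added, after centring on the median of all genes, with the percentile 30 filter and with trended robust variances, and 0 in a fit of the 2 stages alone and with a replicate block. The replicate block also left 4 calls at P5 against E15.5, losing Clock (adjusted p = 0.0592) and Dbp (adjusted p = 0.0563), and 2 between intervals. Same-numbered arrays shared only a number (0 of 9 pairs with r over 0.1). Values that changed sign were all uncalled. Per2 at P10 minus P5 was 0.028 after quantile normalisation and 0.033 after centring on the median. The interval difference of Clock was -0.074 and that of Nr1d1 -0.082 after quantile normalisation. With P5 array 1 alone, Cry1 at P10 minus P5 was -0.090 and the interval differences of Clock and Dbp were -0.045 and 0.22. With 1 array left out, Per1 at P5 minus E15.5 ran from -0.079 to 0.14, Cry1 at P10 minus P5 from -0.20 to 0.28 and Per2 from -0.095 to 0.038. The interval differences ran from -0.052 to 0.16 for Clock, -0.82 to 0.12 for Cry1, -0.33 to 0.15 for Dbp, -0.48 to 0.42 for Nr1d1 and -0.19 to 0.36 for Per3. The cause of these changes was not tested.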

Other observations

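Genes whose signals followed a member most closely over the 9 arrays were found by the root mean square difference of log2 values, each centred on its own mean, among 9645 genes brighter than the median. For Hlf the closest was Nit2 (0.076), followed by Lgals9 (0.088) and Cdo1 (0.10), the cysteine dioxygenase gene. For Nr1d2 it was Gne (0.092), the enzyme gene that starts sialic acid synthesis, then Tm6sf2 (0.14) and Sardh (0.15). Dbp was closest to Vti1a (0.12), Spata2l (0.13) and Rab17 (0.15), and Spata2l was also closest to Per3 (0.16), followed by Spc24 (0.16) and Dbp itself (0.17). Per1 was closest to Fam214a (0.18), Pbk (0.21) and Tsc22d3 (0.21), a glucocorticoid-induced gene. Clock was closest to Msl3 (0.092), Atp6v1h (0.097) and Ibtk (0.10), and Cry1 to Shld1 (0.12), Fam114a2 (0.12) and Ppme1 (0.13). Per2, which hardly varied, was closest to Arhgef10l (0.058), Txnl4a (0.059) and Gna13 (0.064). Bhlhe40 was closest to Hibch (0.21), Auh (0.22) and Acbd5 (0.23). For Nr1d1 the nearest were Atxn1 (0.29), Aldh1a1 (0.32) and Esr1 (0.34). These distances are not scaled to a gene's range over the arrays, which was 3.35 for Nr1d1 and 0.33 for Per2, so they do not rank members by closeness. Many genes differed between the stages, and such likeness is a description.

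Ciart, a repressor of CLOCK and BMAL1 whose RefSeq window of 300 bases holds the E-box letters 3 times, stood out on 1 array. Its brighter probe set read 6.24 there (P10 array 3), against 4.61 to 4.87 elsewhere. The weaker probe set read 5.02 there, within its range of 4.38 to 5.08 elsewhere, so the probe sets disagreed on this array. Apart from the 6.24, both probe sets lay below percentile 30 of all gene values (5.68) on every array. Ciart passed in no comparison of stages (P10 minus E15.5 0.42 ± 0.36, limma adjusted p = 0.427).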
